A study of Mus musculus with 18 samples.

Results

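The 36 genes described here encode heat shock proteins, chaperonin subunits, their co-chaperones and the heat shock factors that control their transcription. They were taken by gene name from 25209 genes listed in each of 18 RNA-seq tables of differentiating mouse fat cell precursors. All 36 were listed, and 35 of them passed the filter for testing, at least 1 TPM in at least 3 libraries. Cryab, a small heat shock protein abundant in lens and muscle, was listed at 0 in all 18 libraries and was not tested.

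Polyadenylated RNA came from 3T3-L1 cells, an established line of mouse preadipocytes, fibroblast-like cells that become fat cells on hormonal induction. All groups shared this line and a medium with 10% fetal bovine serum. Cells that were 2 days past confluence received 10 µg/mL insulin, 0.25 µM dexamethasone (a synthetic glucocorticoid) and 0.5 mM IBMX (which raises cAMP by blocking its breakdown) for 48 h, and then 5 µg/mL insulin in medium replaced every 2 days. This protocol is given in the same words for every sample, and the labels do not say which of its steps a group had received when RNA was taken. Control is described by its name alone, so that it was not induced is not stated. The 6 groups of 3 libraries were Control, MCE1 and MCE2 (stages of mitotic clonal expansion, the cell divisions that follow induction), and Day4, Day6 and Day8, named for the day after the differentiation stimuli. The hours of MCE1 and MCE2 are not stated in the labels, nor is it stated that the 3 libraries of a group came from separate cultures, so p-values measure the spread between these libraries, which may be technical.

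Chaperones bind unfolded or partly folded proteins and keep them from aggregating. Hsp70 proteins take up such clients with the help of J proteins and pass some of them to Hsp90, while chaperonins enclose a protein in a ring-shaped chamber, CCT in the cytosol and Hspd1 with its lid Hspe1 in the mitochondrial matrix. Heat shock factor 1 induces many of these genes under stress by binding repeats of GAA in their promoters, the heat shock elements, and fat cell differentiation is known for its growth of mitochondria and of lipid-handling proteins, which need folding.

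Values are TPM, a level per transcript length and per library. Differences are log2 fold changes of TPM + 1 with the standard error (SE) of the limma fit, and a gene was called higher or lower at an adjusted p under 0.05 over all 12695 genes tested. Depth is unknown because TPM keeps no read number. Listed TPM summed to 869497 to 880273 per library, and log2 values correlated at r = 0.976 to 0.991 within groups and 0.811 to 0.976 between them. The 8 adipocyte markers summed to 158 to 173 TPM in Control libraries, with Adipoq, Plin1 and Lep at 0, and to 25590 to 28180 TPM in Day8. The 8 markers of preadipocytes or fibroblasts, the starting cells, summed to 13720 to 14120 TPM in Control, 7421 to 7749 TPM in MCE1, 6918 to 7048 TPM in MCE2 and 8905 to 11870 TPM in Day8. At Day8, 3 of the 8 were called higher than Control and 5 lower, with a median log2 difference of -1.03. Col1a1 and Col1a2 were among the higher (1.08 and 0.94) and Thy1 among the lower (-1.20). Markers of the remaining cell types were low. The 5 neural markers summed to 9.26 to 10.0 TPM in Control and 4.42 to 5.71 TPM in Day8. The 5 endothelial markers never summed to more than 1.05 TPM, and the macrophage markers Adgre1, Ptprc and Itgam were at 0 in every library, with the 7 of that list at 16.4 to 19.7 TPM in Control and 10.1 to 11.4 TPM in Day8. The 6 skeletal muscle markers summed to 4.67 to 6.65 TPM in Control and 40.7 to 49.2 TPM in Day8, with Myod1, Myog and Ckm at 0 throughout. The 6 epithelial markers summed to at most 0.169 TPM in Control and 9.29 to 12.4 TPM in Day8, with Krt5 at 0 there. Their part in the results below was not tested. Since the RNA is bulk, fewer cells of a type and less RNA per cell cannot be told apart.

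Promoter sequence was searched for exact matches to the shortest form of the heat shock element. A gene without a match, or without a sequence, is not shown to lack an element, since other spellings and bases farther upstream were not searched. The 250 bases before each RefSeq transcript start (GRCm38.p6, a later build than the mm9 build of the deposited tables) were searched on both strands for GAANNTTC and TTCNNGAA, the minimal pairs of facing GAA units, each of which is its own reverse complement. A match was found for 11 of the 29 genes with a sequence (37.9%) and for 14.5% of all 27025 genes. A longer run of at least 3 units, in which pairs overlap, was found for 3 genes, Hspd1, Hspe1 and Dnajb6, and for 0.514% of all genes. It spans 18 bases with 3 overlapping pairs at Hspd1 and Hspe1, and 13 bases with 2 overlapping pairs at Dnajb6. Sequences are given for the 3 genes with the longer run and, as examples of a single pair, for Hsph1 and Dnajb4, with the matched bases in capitals. Both examples peaked at MCE1. The other genes with a match were Hspa1a, Hspa1b, Hspb1, Dnaja1, Cct2 and Cct5. At MCE1, Hspe1, Dnajb6, Hsph1, Dnajb4 and Cct2 were called higher than Control, and Hspa1a, Hspa1b and Dnaja1 lower. Hspd1, Hspb1 and Cct5 were not called. Of all tested genes, 22.0% were called higher and 29.4% lower at that stage. Whether the matches had a part in these changes was not tested. Hspd1 and Hspe1 start back to back and share 1 run on opposite strands, at chr1:55088053-55088082, from 127 to 144 bases before the start of Hspd1 and 72 to 89 bases before that of Hspe1. The match of Dnajb6 is at chr5:29735844-29735872 (plus strand), that of Hsph1 at chr5:149636351-149636380 (minus strand) and that of Dnajb4 at chr3:152193846-152193870 (minus strand).
Hspe1: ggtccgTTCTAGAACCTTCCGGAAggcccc
Hspd1: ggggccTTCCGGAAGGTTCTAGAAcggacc
Dnajb6: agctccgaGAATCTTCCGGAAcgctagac
Hsph1: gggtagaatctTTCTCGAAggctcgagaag
Dnajb4: ttcgttcgctgTTCTAGAAagtaca
A match is a description of the letters, and binding by a heat shock factor was not measured.

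The inducible Hsp70 genes Hspa1a and Hspa1b are near copies of each other and are shown over their whole upstream window for that reason. The windows lie on the minus strand at chr17:34972157-34972406 for Hspa1a and chr17:34959239-34959488 for Hspa1b (GRCm38.p6), overlap no annotated exon, and differ at 3 of 250 bases (98.8% identity). The capitals mark the only match, 97 to 104 bases before each start.
Hspa1a: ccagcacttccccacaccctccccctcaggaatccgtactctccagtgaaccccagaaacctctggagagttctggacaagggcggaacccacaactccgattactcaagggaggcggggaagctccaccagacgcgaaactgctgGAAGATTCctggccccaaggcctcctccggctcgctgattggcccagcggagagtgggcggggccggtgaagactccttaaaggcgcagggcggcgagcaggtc
Hspa1b: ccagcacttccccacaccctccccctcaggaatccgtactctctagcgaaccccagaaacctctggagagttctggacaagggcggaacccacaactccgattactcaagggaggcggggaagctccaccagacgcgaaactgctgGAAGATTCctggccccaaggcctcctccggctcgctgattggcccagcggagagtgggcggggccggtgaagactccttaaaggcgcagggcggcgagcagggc

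Most of the 35 tested genes stood lower in fat cells than in Control. At MCE1, 11 were called higher and 8 lower (31.4% and 22.9%), where 22.0% of all tested genes were called higher and 29.4% lower. At MCE2, 7 were higher and 15 lower, beside 23.4% and 39.1% of all genes. At Day4 the counts were 5 higher and 22 lower, or 62.9% lower, beside 29.7% and 39.3% of all genes. The balance was therefore toward higher levels only at MCE1. At Day6, 6 were higher and 24 lower (68.6%), beside 30.2% and 39.4% of all genes, and at Day8 6 were higher and 21 lower (60.0%), beside 31.7% and 39.7%. The median log2 difference of the 35 genes from Control was -0.02 at MCE1, -0.06 at MCE2, -0.43 at Day4, -0.62 at Day6 and -0.66 at Day8, while the median of all tested genes stayed between -0.17 and -0.06. The comparisons with Control share the same 3 Control libraries, of which replicate 1 came in a table with another style of chromosome name that lists 12 genes at another locus (left out). Whether it was made with the same annotation as the others is not stated, so its TPM values, the 732 TPM of Hspd1 among them, may not be fully comparable. With median-ratio scaling between libraries, which moves the median of all genes by up to 0.17, the split became 15 higher and 7 lower at MCE1 and 16 higher and 11 lower at MCE2. The counts over all 12695 genes moved too. With that scaling, 3611 were higher and 3062 lower at MCE1, against 2799 and 3727 without it. At MCE2, 3932 were higher and 3926 lower, against 2969 and 4964 without it.

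Between neighbouring stages, the largest share of falls came after clonal expansion. From MCE1 to MCE2, 5 genes were higher and 15 lower (42.9%), beside 17.7% and 25.2% of all genes. From MCE2 to Day4, 5 were higher and 20 lower (57.1%), beside 29.6% and 22.0%. From Day4 to Day6, 4 were higher and 9 lower, beside 14.5% and 11.2%, and from Day6 to Day8 the count turned, with 10 higher and 6 lower, beside 10.1% and 11.6%. The MCE1 to MCE2 split was 6 higher and 11 lower with median-ratio scaling, beside 2758 and 2706 of all 12695 genes. Without MCE1 replicate 2, 3 were higher, beside 1948 of all genes. The balance from Day6 to Day8 rests on 1 library. Without Day8 replicate 2 it was 6 higher and 7 lower, beside 1109 and 1535 of all genes. Without Day6 replicate 3 or Day8 replicate 3, 3 were lower, beside 1231 and 1281 of all genes. A fit on the 6 libraries of Day6 and Day8 alone gave 3 higher and 1 lower, beside 522 and 550 of all genes. Higher calls from Day4 to Day6 fell to 2 without Day4 replicate 2, Day6 replicate 1 or Day6 replicate 2. Those fits called 1563, 1570 and 1479 of all genes higher. Over all 6 groups, the F test called 33 of 35 genes, beside 87.6% of all genes, with Hspa2 and Hspa12a not called.

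**Figure D1:**
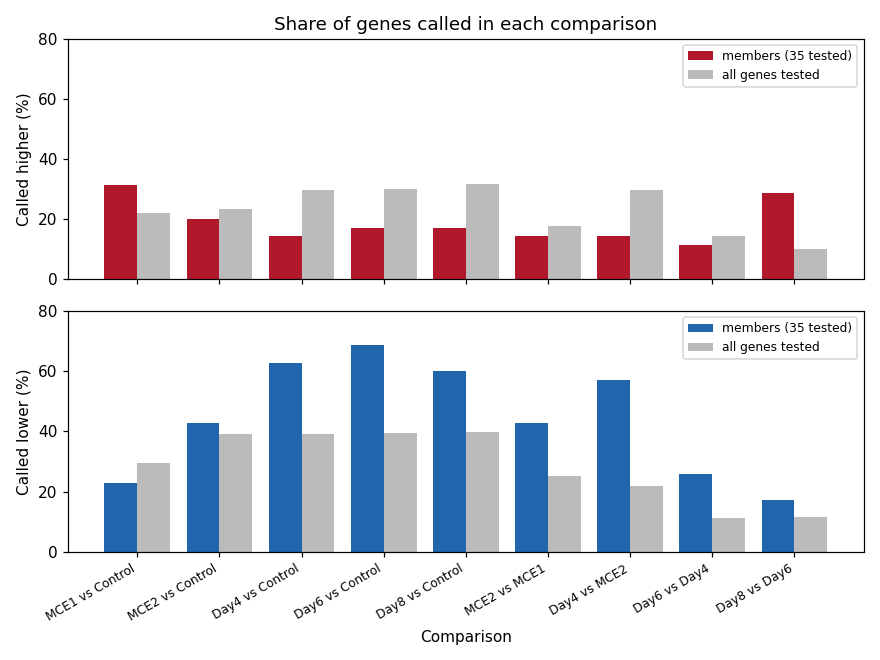
Share of the 35 tested heat shock and chaperonin genes (coloured bars) and of all 12695 tested genes (grey bars) called higher (top, percent) and lower (bottom, percent) in each of 9 comparisons. The share called lower stands at 57.1% to 68.6% of the 35 genes in the Day4, Day6 and Day8 comparisons with Control and in Day4 against MCE2.

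Levels summed over the 35 genes other than Hspd1 were 11490 to 12290 TPM in the Control libraries and 7080 to 7774 TPM in Day8. Of the Control mean of 11820 TPM, Hsp90ab1 gave 3508, Hspa8 1880 and the 7 CCT subunits 3106 TPM. The sum therefore mostly follows these abundant genes. The sum stood at 12030 ± 160 TPM (SD, n = 3) at MCE1, 11970 ± 229 TPM at MCE2, 8590 ± 77.5 TPM at Day4 and 7639 ± 31.2 TPM at Day6. The sum therefore dropped most between MCE2 and Day4 and again, by less, between Day4 and Day6. By the group of their highest mean, 9 genes peaked in Control, 9 in MCE1, 7 in MCE2, 0 in Day4, 3 in Day6 and 7 in Day8, and 12 had their lowest mean in Day8. Ratios of the highest to the lowest group mean ran from 1.31 for Dnaja2 to 36.9 for Hspd1 among the 34 genes with no group at 0.

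**Figure D2:**
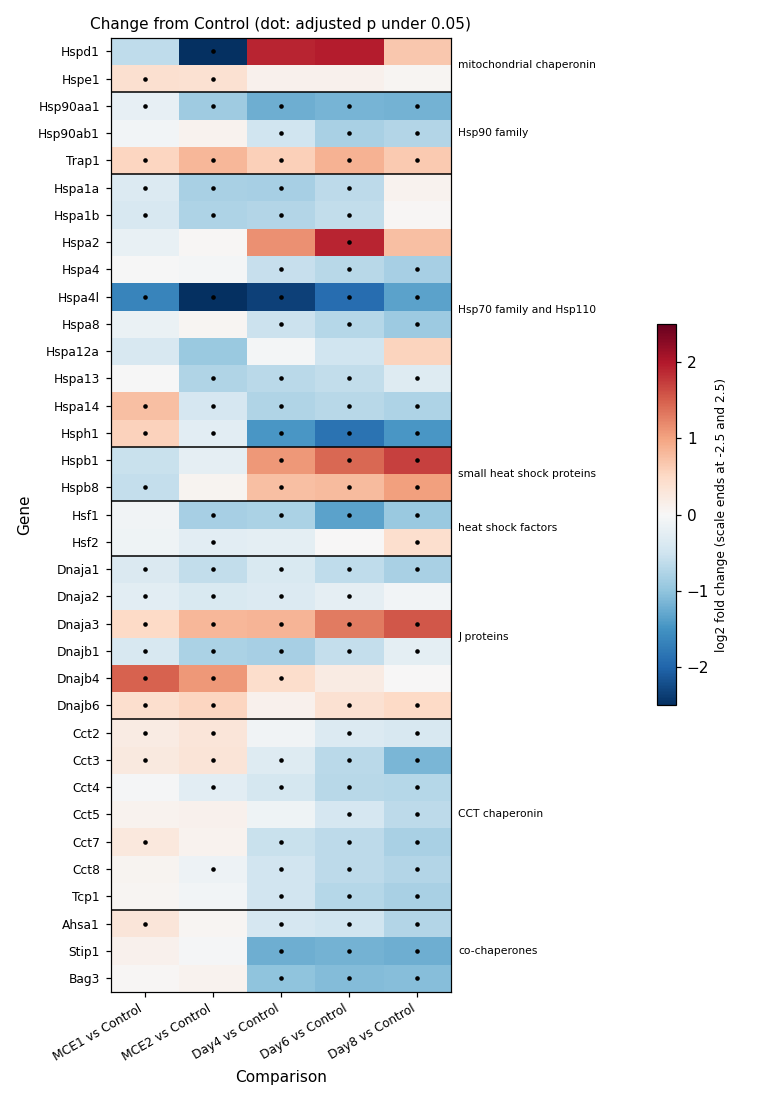
Log2 fold change from Control (colour, clipped at -2.5 and 2.5) of the 35 tested genes (rows, in role groups) at each later stage (columns), with a dot where the adjusted p is under 0.05. The CCT and co-chaperone rows turn from mixed at MCE1 and MCE2 to lower at Day6 and Day8, while Trap1 and Dnaja3 stay higher at every stage. The MCE2 column shifts upward with median-ratio scaling, where Hspa4, Cct8 and Stip1 turn positive.

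Hspd1, the Hsp60 subunit of the mitochondrial chaperonin, varied more within groups than nearly any other gene. The Control libraries stood at 732, 84.5 and 179 TPM, MCE1 at 98.8, 33.0 and 877 TPM, and MCE2 at 27.9, 36.3 and 6.34 TPM. Day4 stood at 863, 781 and 893 TPM, Day6 at 859, 872 and 875 TPM, and Day8 at 86.6, 733 and 705 TPM. The 18 values fell into 8 libraries of 6.34 to 179 TPM and 10 of 705 to 893 TPM, with none between, and Control, MCE1 and Day8 each held libraries of both kinds. The highest library exceeded the lowest 8.67-fold in Control, 26.6-fold in MCE1, 5.72-fold in MCE2 and 8.46-fold in Day8, but only 1.14-fold in Day4 and 1.02-fold in Day6. In Control, MCE1, MCE2 and Day8 between 99.4% and 99.9% of tested genes had a smaller SD of log2(TPM + 1) than Hspd1, while in Day6 only 1.99% did. The genes were chosen with this variation of Hspd1 already known, so its rank is a description and tests nothing.

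Against this spread, 2 of the 9 comparisons of Hspd1 were called. The fit took 1 spread for all 6 groups, so each SE given here is 1.14. The SD of log2(TPM + 1) within groups ran from 0.0141 in Day6 to 2.39 in MCE1. The p-values of Hspd1, for calls and for comparisons not called, rest on that pooling. MCE2 was lower than Control by a log2 difference of -3.49 ± 1.14 (SE, adjusted p = 0.0156), and Day4 was higher than MCE2 by 5.41 ± 1.14 (adjusted p = 0.00121). The ranges did not overlap in either comparison. The MCE2 call was lost without Control replicate 1 (-2.64, adjusted p = 0.0755) or without MCE2 replicate 3 (-2.77, adjusted p = 0.0713). Day4 and Day6 lay above every Control library, but the differences of 1.91 and 1.95 ± 1.14 were not called (adjusted p = 0.151 and 0.142). MCE2 against MCE1 gave -2.85 ± 1.14 (adjusted p = 0.0587), which passed without MCE1 replicate 2 (-3.89, adjusted p = 0.0180).

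Hspe1, the Hsp10 lid that works with Hspd1, showed no such split. Its values were 569, 542 and 505 TPM in Control, 735, 723 and 680 TPM in MCE1, and 719, 680 and 712 TPM in MCE2. All 6 clonal expansion libraries stood above all 3 Control libraries. MCE1 exceeded Control by 0.40 ± 0.05 (SE, adjusted p = 1.14e-05) and MCE2 by 0.39 ± 0.05 (adjusted p = 1.23e-05). Day4, Day6 and Day8 libraries lay between 530 and 606 TPM and overlapped Control, with differences of 0.11, 0.11 and 0.05 that were not called, though all 3 passed with median-ratio scaling (0.26, 0.27 and 0.19). The ratio of Hspd1 to Hspe1 was 1.18 to 1.57 in the 10 libraries with high Hspd1 and 0.0089 to 0.355 in the other 8. The genes overlap by 96 bases at chr1:55144992-55145087 (mm9). Of the 50-base stretches in the annotated transcripts of Hspd1 (GENCODE M21), 42.1% also occur in other genes, 38.0% in the pseudogene Hspd1-ps3, and for Hspe1 the share is 22.8%, so both levels are uncertain where the counting split such reads, and the part of this in the spread was not tested.

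**Figure D3:**
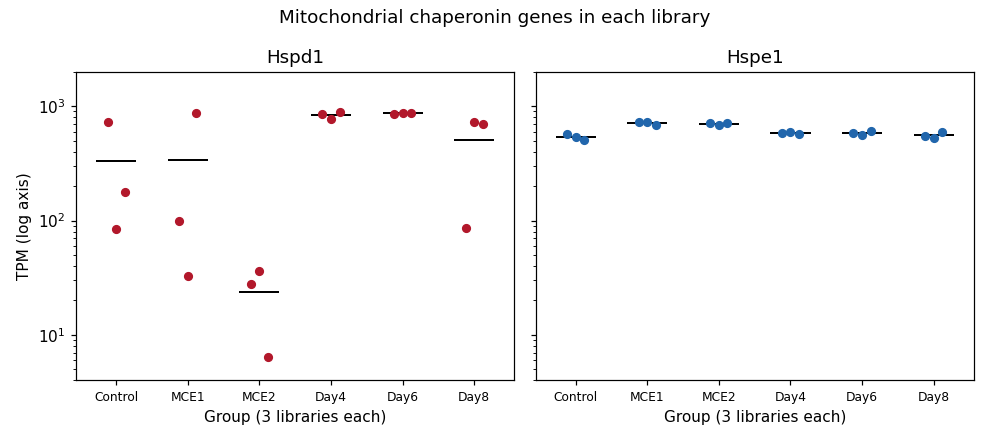
TPM (log axis) of Hspd1 (left) and Hspe1 (right) in each of the 18 libraries by group, with bars at the group means. Hspd1 points lie either at 179 TPM or below or at 705 TPM or above, while Hspe1 points stay between 505 and 735 TPM.

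Other mitochondrial chaperones stood higher at every stage. Trap1, the mitochondrial Hsp90, was at 99.2, 105 and 110 TPM in Control and rose to 164, 135 and 161 TPM in MCE1 and 185, 180 and 192 TPM in MCE2. It then stood at 176, 144 and 160 TPM in Day4, 192, 197 and 184 TPM in Day6 and 164, 175 and 158 TPM in Day8. No later library reached down to Control. The differences from Control were 0.54 at MCE1, 0.82 at MCE2, 0.61 at Day4, 0.86 at Day6 and 0.66 at Day8 (each SE 0.08), with adjusted p of at most 2.64e-05.

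Dnaja3, a J protein that stimulates mitochondrial Hsp70, rose furthest of the 6 J proteins among the 36 genes. Its values were 47.7, 51.6 and 49.3 TPM in Control, 71.3, 64.9 and 74.0 TPM in MCE1 and 86.1, 85.8 and 93.9 TPM in MCE2. They continued at 89.7, 90.1 and 90.3 TPM in Day4, 122, 133 and 115 TPM in Day6 and 135, 160 and 146 TPM in Day8. The log2 difference from Control grew from 0.49 ± 0.07 (SE) at MCE1 to 0.85 at Day4 and 1.55 ± 0.07 at Day8 (adjusted p = 9.49e-12), a 2.97-fold ratio of means.

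The cytosolic Hsp90 genes fell at different stages. Hsp90aa1, the more inducible form, stood at 684, 610 and 592 TPM in Control, 519, 573 and 546 TPM in MCE1 and 314, 354 and 354 TPM in MCE2. Day4 held 266, 267 and 276 TPM, Day6 288, 270 and 282 TPM and Day8 254, 289 and 286 TPM. The fall was thus nearly complete by Day4. The log2 difference from Control was -0.88 ± 0.07 (SE) at MCE2 and between -1.22 and -1.16 from Day4 on, with adjusted p of at most 8.37e-09. That at MCE1, -0.20 ± 0.07 (adjusted p = 0.0175), was lost under median-ratio scaling (-0.08) and on leaving out Control replicate 1 (-0.14) or MCE1 replicate 1 (-0.17). In transcripts of Hsp90aa1, 47.5% of 50-base stretches occur in other genes, most in the gene Gm12346.

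Hsp90ab1, the constitutive form, had the highest level of the 36 genes. It stood at 3621, 3448 and 3455 TPM in Control, 3325, 3349 and 3302 TPM in MCE1 and 3776, 3580 and 3760 TPM in MCE2. Day4 fell to 2488, 2435 and 2477 TPM, and Day6 and Day8 lay between 1961 and 2213 TPM. Unlike Hsp90aa1, it was not called at MCE1 (-0.08) or MCE2 (0.08). The MCE1 value was called in opposite directions by other settings, higher with quantile normalization (0.21, adjusted p = 0.00182) and lower in a fit on its 6 libraries (-0.08, adjusted p = 0.0403). The MCE2 value was called higher with median-ratio scaling (0.28, adjusted p = 0.000227), with quantile normalization (0.16, adjusted p = 0.00854) and without MCE2 replicate 2 (0.10, adjusted p = 0.0493). It was lower than Control by -0.51 ± 0.04 (SE) at Day4, -0.81 at Day6 and -0.73 at Day8 (adjusted p at most 9.68e-09). The ratio of Hsp90ab1 to Hsp90aa1 was 5.59 ± 0.28 (SD, n = 3) in Control, 6.10 ± 0.29 in MCE1, 10.9 ± 0.99 in MCE2, 9.15 ± 0.19 in Day4, 7.17 ± 0.45 in Day6 and 7.65 ± 0.24 in Day8. Each later group lay above all 3 Control libraries, and an exact permutation test, 2-sided, gave p = 0.1 for each, the smallest that 20 regroupings of 3 against 3 allow.

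All 3 co-chaperones of Hsp90 and Hsp70 among the genes fell between MCE2 and Day4, where 22.0% of all tested genes were called lower. Stip1, the adaptor that holds Hsp70 and Hsp90 together, stood at 428, 412 and 386 TPM in Control, 437, 446 and 435 TPM in MCE1 and 395, 396 and 403 TPM in MCE2. Day4 held 177, 173 and 172 TPM, and the libraries of Day6 and Day8 lay between 161 and 201 TPM. The difference from Control was -1.23 ± 0.07 (SE) at Day4, -1.19 at Day6 and -1.22 at Day8 (adjusted p at most 1.97e-10), and at MCE2 it was -0.04, not called, and 0.16 with median-ratio scaling (adjusted p = 0.0428). Bag3, a nucleotide exchange factor that steers Hsp70 clients to autophagy, also fell after MCE2, with 96.6 to 102 TPM in Control, 96.7 to 111 TPM in the clonal expansion libraries and 41.0 to 53.5 TPM in the later ones. Its difference from Control was -1.01 ± 0.08 at Day4, -1.09 at Day6 and -1.06 at Day8 (adjusted p at most 7.45e-09). Ahsa1, the activator of the Hsp90 ATPase, stood at 247, 245 and 233 TPM in Control, rose to 294, 306 and 292 TPM in MCE1 (0.30 ± 0.05, adjusted p = 0.000201) and fell stepwise to 132, 148 and 155 TPM in Day8 (-0.74 ± 0.05, adjusted p = 3.32e-09).

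The constitutive Hsp70, Hspa8, followed Hsp90ab1. It stood at 1936, 1879 and 1826 TPM in Control, 1659 to 1709 TPM in MCE1 and 1904 to 1984 TPM in MCE2. Day4 held 1287 to 1313 TPM, Day6 1118 to 1156 TPM, and Day8 838, 1178 and 1008 TPM, all below every Control library. The log2 difference from Control was -0.53 ± 0.08 (SE) at Day4, -0.72 at Day6 and -0.91 at Day8 (adjusted p at most 2.02e-05). Of its 50-base stretches, 39.4% occur in other genes. Hspa4, an Hsp110-type exchange factor, also stayed near Control in clonal expansion (-0.02 at MCE1 and -0.04 at MCE2, the latter called higher with median-ratio scaling, 0.16, and lower with quantile normalization, -0.11) and fell from 219 to 244 TPM in Control to 126 to 129 TPM in Day8 (-0.84 ± 0.04, adjusted p = 4.77e-11).

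The stress-inducible pair Hspa1a and Hspa1b was low in the middle of differentiation and back at the Control level on Day8. Hspa1a stood at 32.7, 28.1 and 29.4 TPM in Control, 25.5, 23.0 and 22.5 TPM in MCE1 and 16.9, 15.9 and 16.9 TPM in MCE2. Day4 held 14.8, 16.4 and 18.2 TPM, Day6 17.1, 18.8 and 19.9 TPM, and Day8 31.1, 33.3 and 31.8 TPM. Each library from MCE1 to Day6 lay below every Control library, and Day8 overlapped Control. The log2 difference from Control was -0.33 ± 0.09 (SE) at MCE1, -0.82 at MCE2, -0.84 at Day4 and -0.66 at Day6, with adjusted p of at most 0.00384. It was 0.09 at Day8, not called (0.22 with median-ratio scaling and 0.26 with quantile normalization, both past the threshold). From Day6 to Day8 it rose by 0.75 ± 0.09 (adjusted p = 2.02e-05).

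Hspa1b gave nearly the same course, with 44.3 to 49.0 TPM in Control, 33.5 to 35.7 TPM in MCE1, 24.6 to 28.0 TPM in MCE2, 26.7 to 28.1 TPM in Day4, 27.8 to 31.8 TPM in Day6 and 43.0, 51.7 and 46.4 TPM in Day8. Its rise from Day6 to Day8 was 0.66 ± 0.08 (adjusted p = 2.38e-05). The ratio of Hspa1b to Hspa1a stayed between 1.46 and 1.67 in the group means. Reads of the pair cannot be told apart over much of their length, since 66.3% of the 50-base stretches of Hspa1a and 62.3% of those of Hspa1b occur in other genes, most of them in the other copy, so the 2 courses are not independent. Hspa8 exceeded Hspa1b 41.0-fold in Control, 73.7-fold in MCE2 and 21.3-fold in Day8, and the ranges of the latter 2 did not overlap Control (exact permutation test, 2-sided, p = 0.1 for each, the smallest possible).

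Hspa4l, a second Hsp110-type gene, had the largest called fall after that of Hspd1. It stood at 43.5, 40.8 and 41.1 TPM in Control, 13.7, 13.2 and 11.2 TPM in MCE1 and 4.36, 4.86 and 5.36 TPM in MCE2. It then stood at 7.90, 6.80 and 7.81 TPM in Day4, 10.4, 10.8 and 9.89 TPM in Day6 and 14.6, 17.2 and 16.1 TPM in Day8. Every step from MCE2 on was upward, but no library came near Control. The log2 difference from Control was -1.65 ± 0.10 (SE) at MCE1, -2.87 at MCE2 (adjusted p = 4.66e-13) and -1.34 at Day8, and the rises of 0.54 from MCE2 to Day4, 0.42 from Day4 to Day6 and 0.57 from Day6 to Day8 were each called (adjusted p = 0.000228, 0.00424 and 0.0006).

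Hsph1, the stress-inducible Hsp110, and Hspa14, an Hsp70-like protein bound to ribosomes, peaked at MCE1. Hsph1 stood at 151, 143 and 144 TPM in Control, 226, 221 and 205 TPM in MCE1 and 114, 123 and 125 TPM in MCE2. Day4 held 50.55, 49.99 and 57.91 TPM, Day6 40.2, 39.3 and 40.5 TPM and Day8 46.7, 57.3 and 53.3 TPM. The rise at MCE1 was 0.57 ± 0.07 (SE, adjusted p = 6.4e-06) and the later falls -1.45 at Day4, -1.84 at Day6 and -1.46 at Day8 (adjusted p at most 4.29e-11). That at MCE2, -0.27 ± 0.07 (adjusted p = 0.00427), became -0.07 with median-ratio scaling. Hspa14 rose from 94.6 to 102 TPM in Control to 159 to 174 TPM in MCE1 (0.76 ± 0.06, adjusted p = 5.74e-08) and then stood lower, at 69.7 to 74.8 TPM in MCE2 (-0.42) and 51.8 to 62.3 TPM from Day4 on (-0.78 to -0.69). Hspa13, a microsomal Hsp70, was near Control at MCE1 (53.8 to 62.5 against 59.0 to 59.3 TPM), lowest at MCE2 (30.2 to 38.9 TPM, -0.74 ± 0.09, adjusted p = 1.87e-06) and at 44.3 to 51.1 TPM in Day8 (-0.33, adjusted p = 0.00364).

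**Figure D4:**
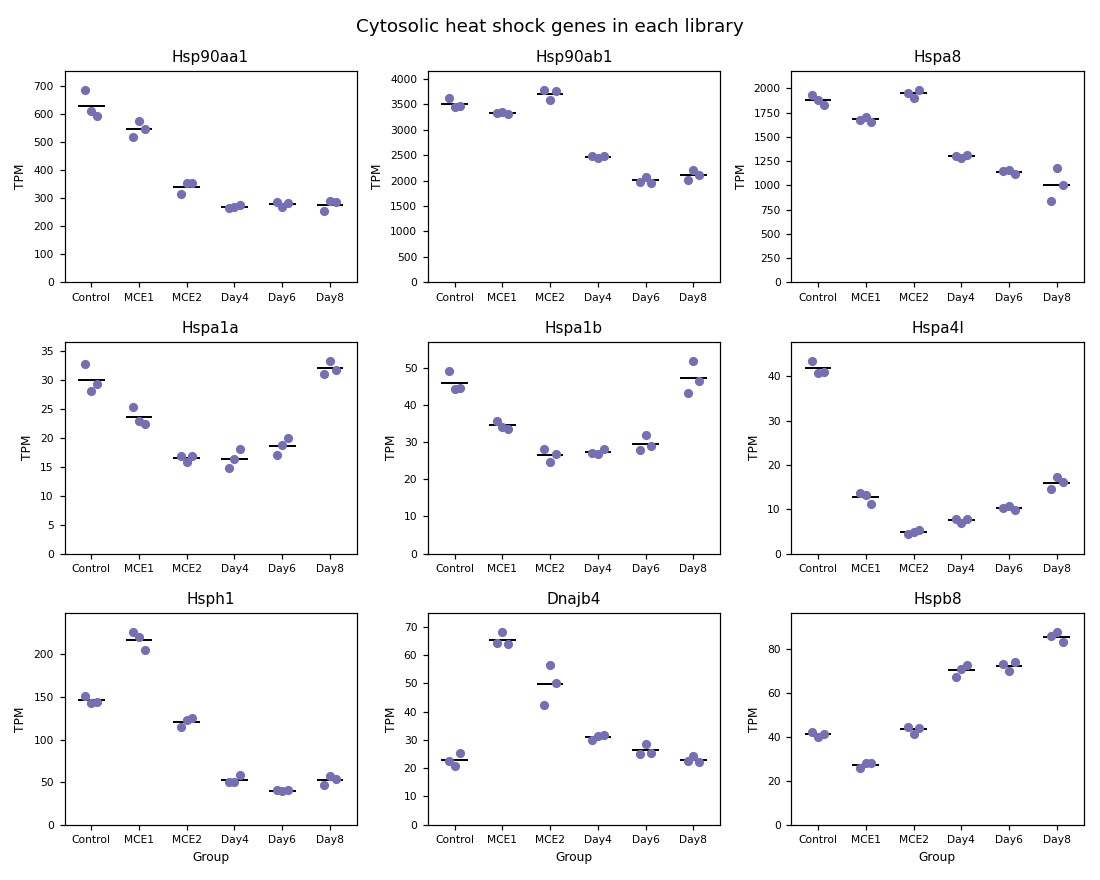
TPM of 9 cytosolic heat shock genes in each library by group (points, 3 per group) with bars at the group means, each panel from 0. Hspa1a and Hspa1b return to the Control level on Day8, Hsp90ab1 and Hspa8 fall after MCE2 from levels whose small early differences depend on the scaling, and Hspb8 ends above Control.

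J proteins deliver clients to Hsp70. Of the 6, 3 were called higher and 3 lower both at MCE1 (22.0% and 29.4% of all tested genes) and at MCE2 (23.4% and 39.1%). At Day8, 2 were higher and 2 lower, near the 31.7% and 39.7% of all genes. Dnajb4, with the heat shock element match printed above, stood at 22.5, 20.8 and 25.3 TPM in Control and rose to 64.4, 68.1 and 63.9 TPM in MCE1. It fell back through 42.4, 56.6 and 50.3 TPM in MCE2, 30.1, 31.4 and 31.9 TPM in Day4 and 25.1, 28.7 and 25.5 TPM in Day6 to 22.7, 24.1 and 22.3 TPM in Day8. The MCE1 difference was 1.48 ± 0.09 (SE, adjusted p = 1.61e-09), the largest called rise of the 35 genes at that stage, and Day8 overlapped Control (0.01). At Day6 the 0.20 above Control was not called but passed with median-ratio scaling (0.35), with quantile normalization (0.38) and without Control replicate 3 (0.27).

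Dnajb1, the classical stress-inducible J protein, had a course like that of Hspa1a. It stood at 69.5 to 73.1 TPM in Control, 50.7 to 56.3 TPM in MCE1, 39.2 to 42.0 TPM in MCE2, 37.9 to 41.4 TPM in Day4, 46.2 to 47.1 TPM in Day6 and 51.9, 64.6 and 64.8 TPM in Day8. The difference from Control was -0.79 ± 0.07 (SE) at MCE2, -0.82 at Day4 (adjusted p = 6.56e-08) and -0.24 at Day8 (adjusted p = 0.00950). The Day8 call was lost without Day8 replicate 1 (-0.13), with median-ratio scaling (-0.11), with quantile normalization (-0.16) and in a fit on its 6 libraries alone (adjusted p = 0.0635). Dnaja1, a farnesylated partner of Hspa8, was lower at every stage, from 143 to 157 TPM in Control to 80.2 to 86.6 TPM in Day8 (-0.81 ± 0.05, adjusted p = 1.16e-09), with 20.6% of its 50-base stretches in other genes. Dnaja2 was lower from MCE1 to Day6 (-0.39 to -0.22, the Day6 value -0.07 and not called with median-ratio scaling) and overlapped Control at Day8, where it was not called (-0.07) except with quantile normalization (-0.16, adjusted p = 0.00857).

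Dnajb6, which holds back protein aggregation, stood at 54.9 to 58.0 TPM in Control, 69.3 to 80.6 TPM in MCE1 and 76.6 to 85.4 TPM in MCE2. Day4 held 71.0, 65.8 and 48.8 TPM, Day6 67.2 to 78.1 TPM and Day8 68.8 to 86.8 TPM. Only Day4 overlapped Control. The differences were 0.42 ± 0.12 (SE, adjusted p = 0.00741) at MCE1, 0.53 at MCE2, 0.38 at Day6 and 0.50 at Day8, and 0.11 at Day4, which passed without Day4 replicate 3 (0.27, adjusted p = 0.0269). The gene spans chr5:30062438-30093641 (mm9) in 17 tables but ends at 30113018 in that of Control replicate 1, and 21.0% of its 50-base stretches occur in other genes.

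Small heat shock proteins bind unfolding proteins without ATP. The 2 tested here, Hspb8 and Hspb1, were called higher than Control at Day4, Day6 and Day8, beside 29.7%, 30.2% and 31.7% of all genes. Of 7 other small heat shock genes listed, 2 were tested. Of these, 1 (Hspb2) was called higher at Day4 and Day6, and 0 at Day8. The Hspb2 calls were lost in several settings, among them a pseudocount of 0.1. Hspb8, the partner of Bag3, stood at 42.4, 39.9 and 41.5 TPM in Control, 25.6, 27.9 and 28.0 TPM in MCE1 and 44.7, 41.5 and 44.0 TPM in MCE2. It rose to 67.2, 70.9 and 72.9 TPM in Day4, 73.3, 70.0 and 74.0 TPM in Day6 and 86.0, 87.7 and 83.3 TPM in Day8. The log2 difference was thus -0.59 ± 0.05 (SE) at MCE1 (adjusted p = 1.45e-07), 0.07 at MCE2, and 0.75, 0.80 and 1.03 at Day4, Day6 and Day8 (adjusted p at most 3.39e-09), and the MCE2 value passed with median-ratio scaling (0.27) and quantile normalization (0.24). Bag3 and Hspb8 therefore stood on opposite sides of Control from Day4 on.

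Hspb1, the mouse Hsp25, was low throughout. It stood at 1.07 to 1.31 TPM in Control, 0.336 to 1.15 TPM in clonal expansion, 4.44, 4.94 and 1.96 TPM in Day4, 4.21 to 5.73 TPM in Day6 and 8.88, 4.74 and 5.30 TPM in Day8. The differences of 1.08, 1.44 and 1.72 ± 0.24 (SE) at Day4, Day6 and Day8 were called (adjusted p at most 0.000844), on a scale that understates changes at such levels. In its transcripts 50.1% of 50-base stretches occur in other genes, nearly all in the pseudogene Hsp25-ps1, so its level is uncertain.

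All 7 CCT chaperonin subunits among the genes fell below Control by Day6, where 39.4% of all tested genes were called lower. CCT is a double ring in which each subunit has its own place, and its best known clients are actin and tubulin. Summed over the 7 subunits, the level was 3248, 3067 and 3005 TPM in Control, 3379, 3458 and 3342 TPM in MCE1 and 3239, 3160 and 3298 TPM in MCE2. Day4 held 2426, 2419 and 2474 TPM, Day6 2031, 2010 and 2114 TPM and Day8 1848, 1819 and 1881 TPM. The MCE1 libraries all lay above Control, and the later 3 groups were each below the one before. The ratio of the highest to the lowest subunit within a library averaged from 1.20 in Day6 to 1.51 in MCE2.

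At MCE1, Cct2, Cct3 and Cct7 were higher than Control, by 0.20, 0.24 and 0.27 ± 0.05 (SE), and 0 of 7 subunits were lower. Of all tested genes, 22.0% were called higher and 29.4% lower at that stage. At MCE2, Cct2 and Cct3 were higher (0.31 and 0.32) and Cct4 and Cct8 lower (-0.26 and -0.13), beside 23.4% and 39.1% of all genes. With median-ratio scaling Cct5 (0.21), Cct8 (0.18) and Tcp1 (0.17) were also called higher at MCE1. At MCE2 that scaling called Cct5 (0.30) and Cct7 (0.30) higher as well and turned Cct8 to 0.07 and Cct4 to -0.06, both not called, so that 4 subunits were higher and 0 lower. Of all 12695 genes, that scaling called 3932 higher and 3926 lower at MCE2. Cct7 was also called higher at MCE2 without MCE2 replicate 2 (0.13), and Cct8 was also lost without Control replicate 1 (-0.10) or MCE2 replicate 1 (-0.11). From MCE2 to Day4 all 7 were called lower, by differences of -0.17 for Cct4 to -0.65 for Cct7, beside 22.0% of all genes. From Day4 to Day6, 6 of 7 were called lower, all but Cct7, beside 11.2% of all genes. Cct7 was called lower there with quantile normalization (-0.16, adjusted p = 0.0140) and without Day4 replicate 1 (-0.15, adjusted p = 0.0369). At Day8 the differences from Control ran from -0.41 ± 0.05 for Cct2 to -1.13 ± 0.05 for Cct3, with adjusted p of at most 2.74e-06.

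Cct3 had the widest course of the 7. It stood at 467, 438 and 423 TPM in Control, 570, 513 and 573 TPM in MCE2, 354, 353 and 359 TPM in Day4, 271, 273 and 291 TPM in Day6 and 204, 191 and 208 TPM in Day8. It was the subunit with the highest mean in MCE2 and the lowest in Day8. Its Day4 difference from Control, -0.31, was not called with median-ratio scaling (-0.17, adjusted p = 0.0595). Tcp1, the subunit for which the complex was first named, fell from 470 to 500 TPM in Control to 261 to 290 TPM in Day8 (-0.80 ± 0.06, adjusted p = 3.10e-09), with 13.9% of its 50-base stretches in other genes and 1109 bases (mm9) overlapping Acat3. Cct6a, the remaining widely expressed subunit, which is not among the 36 genes and was added here after its values were seen, went from 393 ± 18.5 TPM (SD, n = 3) in Control to 208 ± 8.87 TPM in Day8 (-0.92 ± 0.05 SE, adjusted p = 2.38e-10). The genes of its clients were also lower at Day8, with Actb at 4173 ± 183 TPM in Control and 1030 ± 24.0 TPM in Day8 (-2.02) and Tuba1b at 1529 ± 87.9 and 329 ± 10.1 TPM (-2.21), and the proliferation gene Pcna went from 547 ± 24.1 to 104 ± 2.10 TPM. Whether these moves are linked was not tested.

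**Figure D5:**
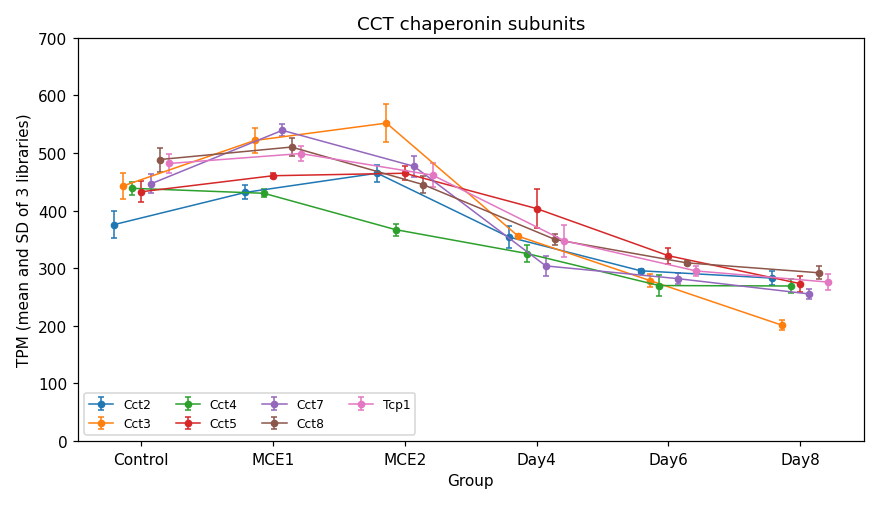
Mean TPM of the 7 CCT subunit genes in each group, with bars for the SD of 3 libraries and lines joining the groups of a gene. Every subunit ends below its Control mean, with Cct3 going from the highest of the 7 at MCE2 to the lowest at Day8. The small differences at MCE2 depend on scaling, where Cct8 turns above Control under median-ratio scaling.

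The heat shock factors changed separately. Hsf1, the main stress-induced activator of these genes, stood at 48.5, 41.1 and 41.3 TPM in Control, 51.3, 29.0 and 45.3 TPM in MCE1 and 23.8, 20.1 and 29.6 TPM in MCE2. Day4 held 22.1, 21.5 and 31.7 TPM, Day6 19.6, 18.9 and 12.1 TPM and Day8 22.8, 17.0 and 28.8 TPM. From MCE2 on no library reached the Control range. The log2 difference from Control was -0.82 ± 0.24 (SE) at MCE2, -0.79 at Day4, -1.35 at Day6 and -0.93 at Day8, with adjusted p of at most 0.00867. Hsf2, a second factor with roles in development, stood at 17.7 to 20.0 TPM in Control and was higher at Day8, with 26.9, 28.2 and 21.2 TPM (0.41 ± 0.11, adjusted p = 0.00299). Its small difference at MCE2 (-0.26, adjusted p = 0.0490) was 0.000593 with quantile normalization, -0.07 with median-ratio scaling, not called without a filter (adjusted p = 0.0608), and lost on leaving out Control replicate 1, 2 or 3 or MCE2 replicate 1 or 3 (-0.30 to -0.20). Heat shock factor activity is set mainly on the protein, which RNA levels do not show.

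The remaining genes were too low to describe a course. Hspa2, a testis Hsp70, was listed at 0 in 10 libraries and reached 6.13 TPM in Day8 replicate 2 while the other Day8 libraries were at 0. Its highest library was 0.480 TPM in Control, 0 in MCE1 and 0.599 TPM in MCE2. Hspa2 thus passed the filter of 1 TPM only through later groups, where it was higher, and a call above Control is no independent support. Its Day6 call (1.91 ± 0.67 SE, adjusted p = 0.0182, with 1.67, 5.10 and 3.85 TPM) is among the 6 counted higher at Day6. The call was lost without Control replicate 3 (1.82), Day6 replicate 2 (1.66) or Day6 replicate 3 (1.82). Hspa12a, a distant Hsp70 relative, lay between 0.00624 and 4.88 TPM and was not called in any of the 9 comparisons. Other settings called it in 4 of them, MCE1 (-0.39) and Day8 (0.56) against Control in fits on 6 libraries, MCE2 against Control without MCE2 replicate 2 (-1.19), and Day8 against Day6 without Day6 replicate 1 (1.43).

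Other genes of the chaperone network, from 7 lists written from general knowledge, add the setting. Of 115 listed, 102 were tested, and at Day8 34 were called higher and 41 lower than Control, beside the 31.7% and 39.7% given above. Among 18 mitochondrial chaperone partners and proteases, 12 were higher and 1 lower at Day8, with a median log2 difference of 0.76, while that of all tested genes was -0.11. Lonp1, the matrix protease, went from 171 ± 12.4 TPM (SD, n = 3) in Control to 640 ± 49.1 TPM in Day8 (1.89 ± 0.06 SE, adjusted p = 1.6e-13), Clpx, the unfoldase of the Clp protease, from 20.0 ± 2.71 to 99.1 ± 15.9 TPM (2.25), and Dnajc15, a J protein of the import motor, from 50.2 ± 4.19 to 159 ± 7.46 TPM (1.64). These stand on the same side of Control as Trap1 and Dnaja3.

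Of 28 further Hsp90 and Hsp70 co-chaperones, 5 were higher and 19 lower at Day8, beside 31.7% and 39.7% of all genes, with a median of -0.48. Fkbp5, a co-chaperone of the glucocorticoid receptor known as a target of glucocorticoids, had the largest change, from 50.9 ± 1.56 TPM (SD, n = 3) in Control to 436 ± 7.21 TPM in MCE1, 612 ± 22.1 TPM in MCE2 and 557 ± 17.6 TPM in Day4. It then dropped to 108 ± 16.7 TPM in Day6 and 38.0 ± 2.37 TPM in Day8, where it was below Control (-0.41 ± 0.08 SE, adjusted p = 0.000256). Ruvbl1, an ATPase that works with Hsp90 in complex assembly, fell from 123 ± 5.26 to 45.6 ± 2.87 TPM at Day8 (-1.41). Among 18 tested prefoldin and CCT partners, 4 were higher and 10 lower at Day8, beside the same shares of all genes. This became 6 lower under median-ratio scaling or quantile normalization, 1 higher under quantile normalization and 2 higher without Control replicate 1. Of all 12695 genes, 4470 and 4856 were lower under the 2 scalings, against 5036 as reported. Higher were 4290 under quantile normalization and 3765 without Control replicate 1, against 4025 as reported. The prefoldin subunit Vbp1 fell from 107 ± 5.63 to 53.2 ± 2.92 TPM (-0.99).

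Of 28 tested other J proteins, 9 were higher and 9 lower at Day8, near the 31.7% and 39.7% of all tested genes. Dnajb9, a J protein of the endoplasmic reticulum, rose from 23.7 ± 1.02 TPM (SD, n = 3) in Control to 101 ± 13.1 TPM in Day8 (2.03 ± 0.08 SE, adjusted p = 2e-12), and Dnajc9, a histone chaperone, fell from 116 ± 5.42 to 29.7 ± 5.49 TPM (-1.94). Of 6 other Hsp70 and Hsp90 genes, 3 were higher and 2 lower at Day8, beside the same shares of all genes. Hspa5, the Hsp70 of the endoplasmic reticulum, rose from 469 ± 14.9 to 1390 ± 60.5 TPM (1.56 ± 0.04 SE, adjusted p = 1.4e-14) and so exceeded the Day8 mean of the cytosolic Hspa8, 1008 ± 170 TPM, which it had been below in Control (1880 ± 55.2 TPM).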

How the data were processed

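RNA-seq values of 36 genes were taken from 18 tables, 1 per library. The authors deposited TPM per gene with mm9 positions, and per the submitters' processing notes used FastQC, cutadapt, HISAT2 and StringTie (versions not given). The annotation is not given in the sources used here. Each table listed 25209 genes, of which 12 at another locus in Control replicate 1 were left out. The filter of 1 TPM in 3 or more libraries left 12695 genes. Values of log2(TPM + 1) entered a linear model in limma 3.58.1, run in R 4.3.3 (trend and robust, 1 mean per group, 12 residual degrees of freedom), with 2-sided moderated tests of 9 comparisons, an F test, and Benjamini-Hochberg adjustment over all tested genes. The fit was tested on simulated data. Tables and figures were made with Python 3.11.15, pandas 2.3.3, numpy 2.4.6 and matplotlib 3.10.9. Alternatives were a pseudocount of 0.1, no filter, a filter of 5 TPM, median-ratio scaling, quantile normalization, a fit on the 6 libraries compared, the replicate number as a block, and leaving out each library. The members and all gene lists were chosen with earlier results of these data known, and alternatives for other pathway genes were added after seeing the data. All 36 members could be named, and of each other list up to 3 called genes with the largest change from Control, plus context genes where needed. Depth is unknown, so the spread between replicates sets the precision. Upstream windows are from RefSeq (GRCm38.p6), and shared 50-base stretches were counted over GENCODE M21 transcripts.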

Additional observations from a re-analysis of the deposited data

How the results depend on the processing

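Of 315 log2 fold changes of the 35 tested genes, 199 were called, and 164 of these kept direction and call under every alternative run. Over all other settings but leaving out a library, 2096 values kept their call, 43 lost it, 42 gained it and 6 reversed. The cause was not tested. Median-ratio scaling gave 16 genes higher at MCE2 than Control (7 as reported) and turned Hspa4 (0.16), Cct8 (0.066) and Stip1 (0.16) positive in that comparison, as well as Ruvbl1 (0.17), whose alternatives were chosen after seeing the data. Of all 12695 genes, it called 3932 higher there (2969 as reported). Quantile normalization gave 3 genes higher from MCE1 to MCE2 (5 as reported), turned Hsp90ab1 to 0.21 at MCE1 against Control and -0.047 at MCE2 against MCE1, and Hsf2 to 0.000593 at MCE2 against Control. It called 2754 of all 12695 genes higher from MCE1 to MCE2 (2242 as reported). A fit on the 6 libraries compared gave 3 higher and 1 lower from Day6 to Day8 (10 and 6 as reported), with fewer residual degrees of freedom. Of all 12695 genes, that fit called 522 higher and 550 lower (1287 and 1474 as reported). Leaving out each library in turn gave 3 to 4 genes higher from MCE1 to MCE2, 2 to 4 higher from Day4 to Day6, and 6 to 10 higher and 3 to 7 lower from Day6 to Day8. Same-numbered libraries did not deviate together (r = -0.074 to 0.093), and with the replicate block the 9 comparisons kept their counts except 23 lower at Day4 against Control and 9 higher and 5 lower from Day6 to Day8, and the F test called 34. Since TPM carries no depth, the spread between libraries within groups, pooled over the 6 groups by the fit on all 18 libraries, is the only error available.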
